A study of Schmidtea mediterranea with 28 samples.

Results

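The comparison described here sets X1 cells, the sorted fraction enriched in planarian stem cells, against Xins cells, the fraction of differentiated cells, in libraries without knockdown of a target gene. It rests on 7 of the 28 RNA-seq libraries of the series, chosen by their labels alone: 3 X1 libraries (control RNAi replicates 1 and 2, and 1 wild type library) and 4 Xins libraries (control RNAi replicates 1 and 2, and wild type replicates 1 and 2). All came from the asexual Berlin-1 strain of *Schmidtea mediterranea*, a freshwater flatworm. The strain is a laboratory line raised from 1 individual. Control RNAi animals had been injected with dsRNA against *gfp*, a gene that planarians lack, and the other libraries carry the label wild type. The sort separated dissociated cells by DNA content and by calcein staining of the cytoplasm, with propidium iodide used to leave out dead cells. X1 cells have more than the unreplicated DNA content, as cells in S phase, G2 or mitosis do, and Xins cells have the unreplicated content and strong calcein staining. Both fractions are mixtures, and stem cells outside S phase, G2 and mitosis are not in the X1 gate. No source states that the replicates were separate sets of animals, so the p-values measure only the spread between these libraries.

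Neoblasts are the only dividing somatic cells of the adult planarian and give rise to every other cell type. They carry chromatoid bodies, cytoplasmic granules rich in RNA-binding proteins that resemble the germ granules of other animals, and they depend on PIWI proteins, which silence transposons with the help of piRNAs. RNA-binding proteins also decide how pre-mRNAs are spliced, exported, stored and translated, and many of them are restricted to stem cells or to differentiated tissues such as neurons, muscle and epithelia.

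The study asked which regulators set the splicing of stem cells apart from that of differentiated cells, and the level of each RNA-binding protein transcript in the 2 fractions bears on this. Of 22944 transcripts in the deposited tables, 12855 had a mean log2(cRPKM + 1) above 1.5 over the 7 libraries and were tested with edgeR's quasi-likelihood test on the raw counts. A transcript is called where its Benjamini-Hochberg adjusted p, taken over all 12855, is under 0.05. Levels are given as CPM, counts per 1e6 of the scaled library size, always in the order control RNAi replicate 1, control RNAi replicate 2 and wild type, with both wild type libraries at the end for Xins. Differences are log2 values of X1 minus Xins with their standard errors (SE). In bulk RNA, fewer cells of a type and less RNA per cell cannot be told apart. The libraries held 22.9 to 32.7 counts each in units of 1e6, on which 3 counts equal 0.0917 to 0.131 per 1e6 before scaling. The scaling factors were 0.76 to 0.84 in X1 and 1.11 to 1.24 in Xins. In CPM the same 3 counts therefore stand higher in X1 and lower in Xins than before scaling. Counts of X1 libraries correlated with each other at r = 0.981 to 0.996 and those of Xins libraries at 0.963 to 0.993, against 0.711 to 0.766 between the fractions, as a description across transcripts. The library total implied by the deposited cRPKM was set against the sum of the counts, with the X1 wild type library as the standard. In the first control RNAi library of each fraction this ratio was 1.16 times the standard in X1 and 1.17 times in Xins.

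The labels were set first against markers of the cells. The study had grouped *bruli*, *celf-2*, *rbfox-2*, *rbfox-3*, *nova-1*, *esrp-1* and *esrp-2* by their level in these fractions before their knockdown. The directions of these genes are therefore no independent check of the labels. The 8 neoblast markers (2 transcripts each of *PIWIL1* and *DDX4*, and *bruli*, *TDRD9*, *TDRD12* and *TDRKH*) summed to 15186 to 16027 CPM in X1 libraries and to 596 to 901 CPM in Xins libraries, and all 8 were called higher in X1. The highest Xins sum, in control RNAi replicate 1, was 5.93% of the lowest X1 sum. The 12 markers of differentiated cells stand for neurons, muscle and epithelia. They were 3 transcripts of *ELAVL4*, and *celf-2*, *rbfox-2*, *rbfox-3*, *nova-1*, *RBPMS*, *RBM24*, *esrp-1*, *esrp-2* and *RBM47*. Of these, 11 were tested, 9 were called lower in X1 and 1 (*ELAVL4* comp10994) was called higher. *RBM24* (log2 0.66) was not called, but all its X1 libraries lay above all its Xins libraries. *RBM47* missed the level filter, with 56 counts summed over X1 and 23 over Xins libraries. The lists that the markers come from held transcripts called higher in X1, 5 of 11 neural, 4 of 15 knocked-down and 1 of 10 muscle and epithelial. In the same lists 6, 10 and 8 were called lower. The sums of these markers were 136 to 161 CPM in X1 and 531 to 717 CPM in Xins, where the lowest value was that of wild type replicate 2. The highest X1 sum was 30.3% of the lowest Xins sum. No marker of either kind was at 0 in all libraries of a fraction. The part of residual cells of the other type in the differences below was not tested.

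Most transcripts differed between the fractions, with 81.8% of those tested called, 5031 higher in X1 (39.1%) and 5484 lower (42.7%). The median difference over all transcripts was −0.13. The split depended on the scaling, since on log2(cRPKM + 1) limma called 3744 higher and 6328 lower, with a median of −0.58, and after quantile normalization 5447 higher and 4972 lower, with a median of 0.09. Large differences were mostly of transcripts low in X1. At least 16-fold, 340 transcripts (2.64%) were called higher in X1 and 2191 (17%) lower, and at least 64-fold 126 (0.98%) were higher and 973 (7.57%) lower. At least 2-fold the numbers were 4168 (32.4%) higher and 4859 (37.8%) lower. The excess of transcripts lower in X1 at 16-fold or more, 6.44 times in this fit, was between 3.66 and 9.52 times under every other scaling, filter and choice of libraries that was run, whereas at 2-fold quantile-normalized cRPKM gave 4299 higher and 4187 lower.

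**Figure D1:**
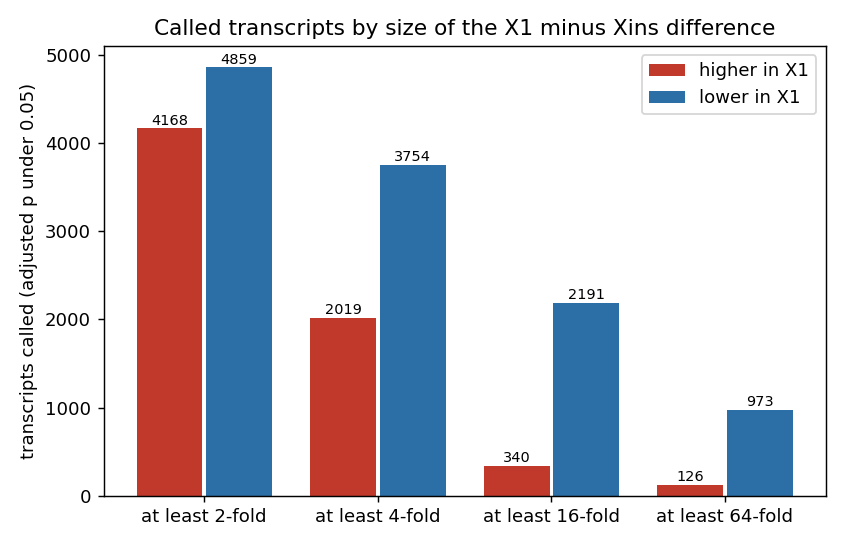
Number of transcripts (y axis) called higher in X1 (red) and lower in X1 (blue) among 12855 tested, for differences of at least 2-fold, 4-fold, 16-fold and 64-fold (x axis). The bars for 2-fold stand at 4168 and 4859, and those for 16-fold at 340 and 2191.

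The 340 transcripts of the first kind took 4.16% to 4.53% of all counts in X1 libraries and 0.121% to 0.189% in Xins libraries. The 2191 of the second kind took 0.21% to 0.541% of the counts in X1 and 21.1% to 25.8% in Xins. Their median level was 0.404 CPM in X1 and 22.2 CPM in Xins. Without the level filter, 12327 of 22944 transcripts had a mean of at least 1 CPM in X1, and 51 to 57 of them had 3 or fewer counts in total in 3 Xins libraries, depending on which of the 4 was left out. Of 13966 with a mean of at least 1 CPM in Xins, 587 had 3 or fewer counts in the 3 X1 libraries together. The filter averages over 3 X1 and 4 Xins libraries, so that a transcript present in Xins alone passes it at a lower level, and among tested transcripts the numbers were 1 to 3 and 227. The unfiltered count was added after seeing the data. The 100 most abundant transcripts took 34.3% to 35.7% of the counts in X1 and 25.1% to 25.8% in Xins.

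Transcripts with a name are those that the study's tables give a best human hit, a KEGG number or a planarian gene name, here 372 sorted into 21 lists by function. Of these, 367 are in the tables and 351 passed the level filter. Among the 351, 283 were called higher in X1 (80.6%) and 49 lower (14%), against 39.1% and 42.7% of all transcripts, with a median log2 of 1.79 against −0.13. The 39.1% and 42.7% are also the shares against which the counts of each list below are to be read. The 16 that missed the filter had between 0 and 468 counts summed over the X1 libraries and between 0 and 167 over the Xins libraries. The median of each list kept its sign under all 5 other scalings.

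**Figure D2:**
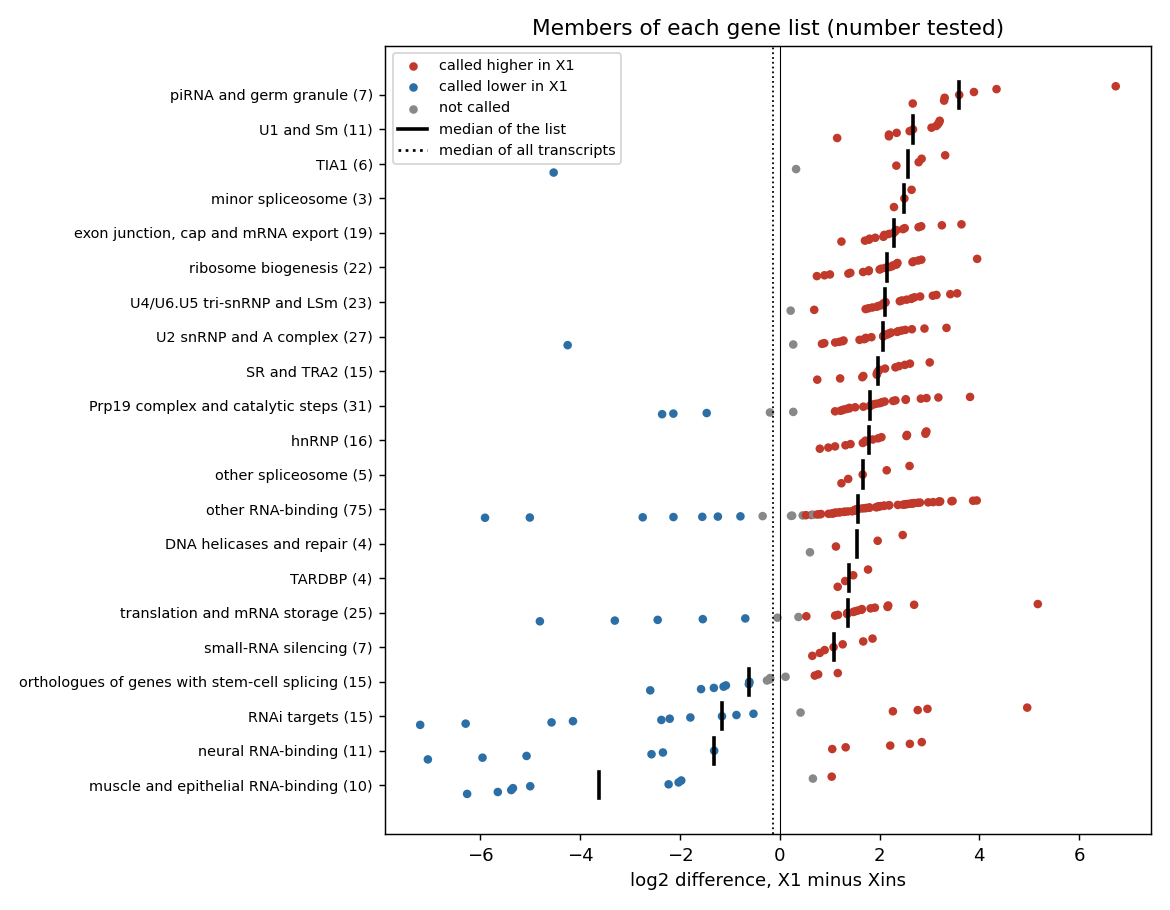
Log2 difference of X1 minus Xins (x axis) for every tested member of 21 gene lists (y axis, number tested in brackets). Red points were called higher in X1, blue points lower and grey points were not called. Thick bars mark the median of each list and the dotted line the median of all transcripts, −0.13. The piRNA list lies furthest right with a median of 3.60 and the muscle and epithelial list furthest left with a median of −3.62.

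All 7 transcripts of the piRNA and germ granule list were higher in X1, with a median log2 of 3.60. In each the 3 X1 libraries lay above all 4 Xins libraries, as in 39.8% of all transcripts. The same 7 are among the 8 neoblast markers against which the labels were set above. This list and that check are therefore not separate evidence. *PIWIL1* comp659, closest to the human PIWI protein that binds piRNAs, had 6333, 6848 and 6506 CPM in X1, against 117, 21.7, 42.5 and 65.5 CPM in Xins. The X1 libraries lay close together, while the Xins libraries spread widely, with the highest value in the first control RNAi library. The difference was 6.74 (SE 0.59, edgeR adjusted p = 2.23e-05). The other *PIWIL1* transcript, comp1258, stood at 3877, 3239 and 3479 CPM in X1, against 377, 265, 279.7 and 244 CPM in Xins, a difference of 3.60 (SE 0.20). The groups did not overlap here either.

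*DDX4*, known as vasa, is an RNA helicase of germ granules, and both of its transcripts were higher in X1. *DDX4* comp1985 had 2429.6, 1672 and 1805 CPM in X1, against 132, 91.4, 91.7 and 72.2 CPM in Xins (log2 4.35, SE 0.26). *DDX4* comp2082 averaged 972 ± 66.2 CPM in X1 and 65.4 ± 14.4 CPM in Xins (SD, n = 3 and 4; log2 3.89). The tudor-domain proteins, which in mice gather PIWI proteins and the enzymes that make piRNAs, were higher as well. *TDRD9* averaged 452 ± 10.7 CPM in X1 and 45.7 ± 4.3 CPM in Xins (log2 3.31), *TDRD12* 584 ± 12.4 CPM in X1 and 59.5 ± 7.06 CPM in Xins (log2 3.29), and *TDRKH* 255 ± 11.7 CPM in X1 and 40.1 ± 2.97 CPM in Xins (log2 2.67).

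**Figure D3:**
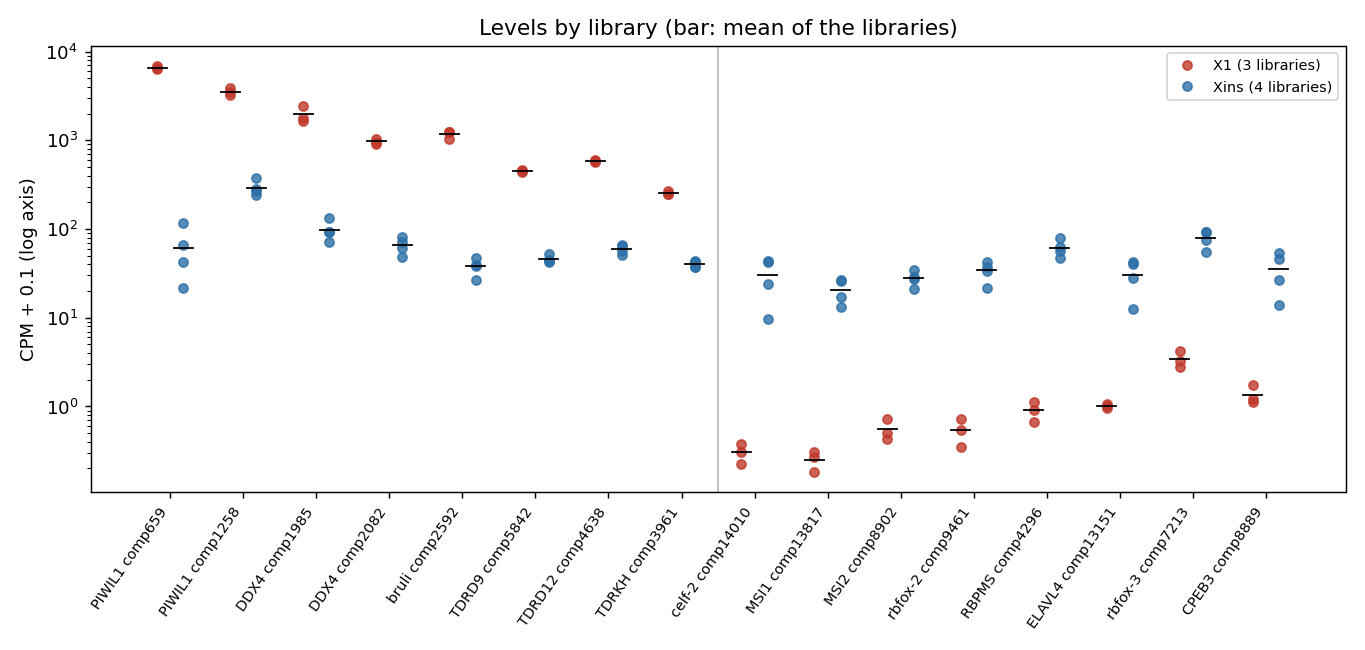
Level in CPM plus 0.1 (y axis, log scale) of 16 named transcripts (x axis) in each of 3 X1 libraries (red, left) and 4 Xins libraries (blue, right), with a bar at the mean. The 8 neoblast markers on the left lie higher in all X1 libraries. The 8 transcripts on the right lie higher in all Xins libraries, but they were picked among those called lower in X1. Their separation therefore follows from the choice. *MSI1*, *MSI2* and *CPEB3* are not among the markers of differentiated cells. The markers *ELAVL4* comp10994 (log2 1.32, called higher in X1) and *RBM24* (0.66, not called) are among those not shown. In X1, *celf-2* had 0.122 to 0.281 CPM and *rbfox-3* 2.68 to 4.08 CPM.

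The machinery of microRNAs and siRNAs, a separate branch of small-RNA silencing, was also higher in X1 in 7 of 7 transcripts, but with a median of 1.08. *AGO2* comp1194, an Argonaute that carries such small RNAs, had 1299, 1082 and 1059.6 CPM in X1, against 370.4, 267, 291 and 335 CPM in Xins (log2 1.86), and *DGCR8*, the partner of the nuclear RNase *DROSHA*, averaged 63.8 ± 8.68 CPM in X1 and 20.0 ± 1.43 CPM in Xins (log2 1.67). The others were *AGO2* comp7594 (1.26), *DICER1* (1.08), which cuts the hairpin precursors, *DROSHA* (0.90), *AGO2* comp3861 (0.80) and *TARBP2* (0.65), a partner of Dicer. On log2(cRPKM + 1), 2 of the 7 were called, and with the control RNAi libraries alone 3 were. *DICER1* had 65.9, 115 and 115 CPM in X1, against 22.4, 57.0, 56.9 and 50.6 CPM in Xins, and its call was lost without the second X1 control RNAi library (log2 0.95, edgeR adjusted p = 0.064) or without the X1 wild type library (log2 0.95, adjusted p = 0.0673).

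The spliceosome, which removes introns in a series of steps, was higher in X1 in nearly all of its parts. Over its 6 lists, 92 of 100 tested transcripts were called higher and 4 lower, against 39.1% and 42.7% of all transcripts, with a median of 2.08. All 11 transcripts of the U1 particle, which recognizes the 5′ splice site, and of the Sm ring were higher (median 2.67), led by *SNRPA* comp2444 (3.21), *SNRPD2* (3.19), *SNRPN* (3.17) and *SNRPD1* (3.14). *SNRPN*, an Sm protein, had 658, 656 and 647 CPM in X1, against 78.6, 76.3, 61.3 and 74.1 CPM in Xins. The lowest X1 library lay above the highest Xins library.

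In the list of the U2 particle, which binds the branch site, and of the A complex, 25 of 27 transcripts were higher and 1 lower (median 2.07). Among those with the largest differences were 3 subunits of SF3b, *PHF5A* (3.34), *SF3B4* (2.90) and *SF3B3* (2.65), and *SF1* comp6978 (2.52), the protein that first reads the branch site. The U4/U6.U5 tri-snRNP and LSm list had 22 of 23 higher and none lower (median 2.12). Its leading members were *SNU13* (3.56), which binds U4 snRNA, the U5 GTPase *EFTUD2* (3.42), *SNRNP27* (3.14) and *PRPF4* (3.07). *SNU13* averaged 176 ± 8.93 CPM in X1 and 15.0 ± 1.49 CPM in Xins. The member that was not called was the U5 protein *TXNL4A* (0.22).

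Of the Prp19 complex and the factors of the catalytic steps, 26 of 31 were higher and 3 lower (median 1.82). The ubiquitin ligase *PRPF19* itself had 651, 546 and 551 CPM in X1, against 103, 75.6, 72.8 and 76.3 CPM in Xins (log2 2.83), and its associated proteins *BCAS2* and *CRNKL1* stood at 3.18 and 2.94. All 3 transcripts that were lower shared the best human hit *DHX8* and are described further on. The minor spliceosome removes a rare class of introns, and its 3 tested transcripts were higher, *SNRNP35* by 2.64, *RBM48* by 2.50 and *RNPC3* by 2.29. *RNPC3*, which bridges its U11 and U12 particles, averaged 24.1 ± 0.799 CPM in X1 and 4.93 ± 0.837 CPM in Xins. The 5 remaining spliceosome transcripts were higher too, among them *BUB3* at 2.14, comp5026 (known by a KEGG number only) at 1.37 and *PQBP1* at 1.24.

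Among factors that bind exons and introns and steer the spliceosome, the SR and TRA2, hnRNP and *TARDBP* lists were called higher throughout, whereas the *TIA1* and tissue-specific factors described further on divided. SR and TRA2 proteins, which mostly promote exon inclusion, were higher in 15 of 15 transcripts (median 1.98, lowest 0.75). The leading ones were *TRA2B* comp4073 (3.01), *TRA2B* comp3781 (2.61), *TRA2A* (2.51) and *SRSF10* comp1695 (2.39). The hnRNP proteins, many of which oppose exon inclusion, were higher in 16 of 16 (median 1.79, lowest 0.80). *HNRNPL* comp1327 had 1641, 1557 and 1469.8 CPM in X1, against 233, 195, 187 and 206 CPM in Xins (log2 2.92), and *HNRNPA2B1* comp986 (2.94), *MYEF2* (2.92) and *HNRNPF* (2.55) stood beside it. All 4 *TARDBP* transcripts, named for the protein TDP-43, which binds UG repeats, were higher as well, comp10863 by 1.77, comp20304 by 1.47, comp3328 by 1.31 and comp12522 by 1.16. The count of *TARDBP* comp20304 was low, with 4.5, 9.52 and 6.63 CPM in X1, against 2.13, 1.82, 1.9 and 4.1 CPM in Xins, and it was not called on log2(cRPKM + 1).

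Later steps of an mRNA's life were also represented more in X1. All 19 transcripts of the exon junction complex, the cap-binding complex and mRNA export were higher (median 2.28). The export helicase *DDX39B* comp794 had 1959, 2084 and 2095 CPM in X1, against 227, 206, 210.5 and 217 CPM in Xins (log2 3.25). *NUP35*, of the nuclear pore, differed by 3.64, the export adaptor *ALYREF* by 2.84 and *SARNP* by 2.78. Ribosome biogenesis was higher in 22 of 22 transcripts (median 2.16, lowest 0.74), most of them helicases that remodel pre-rRNA. *DDX55* averaged 29.5 ± 2.1 CPM in X1 and 1.89 ± 0.272 CPM in Xins (log2 3.96), and it was followed by *DHX37* (2.84), *DDX56* (2.78) and *SKIV2L2* (2.69), the helicase of the nuclear exosome. Of 4 RecQ-type DNA helicases 3 were higher, *RECQL* comp18961 (2.47), *BLM* (1.96) and *RECQL5* (1.13), and *RECQL* comp7318 (0.61) was not called.

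Translation and mRNA storage divided, with 18 of 25 transcripts higher, 5 lower and 2 not called (median 1.36). On the higher side stood the initiation helicase *DDX3X* comp799 (2.69), the ribosomal protein *RPS3* (2.17) and *LSM14B* (2.17), a relative of proteins that store mRNA in oocytes. *DDX3X* comp799 had 1742, 1588 and 1625 CPM in X1, against 252, 240.4, 255 and 274 CPM in Xins. On the lower side, *CPEB3*, which binds the cytoplasmic polyadenylation element, had 1.63, 1.02 and 1.11 CPM in X1, against 26.6, 53.1, 46.1 and 13.9 CPM in Xins (log2 −4.81). Its 4 Xins values differed widely but all lay above X1. The *MEX3A* transcripts comp6053 (−3.31) and comp7864 (−2.45), named for an RNA-binding ubiquitin ligase, were lower too, and the first of them stood at −3.92 without the first X1 control RNAi library.

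The planarian genes that the study later knocked down, mostly homologues of tissue-specific splicing factors, were called in both directions. The study had grouped them by their level in these fractions, so their directions are not independent evidence. Of 15 tested, 4 were higher, 10 lower and 1 (*mbnl-like-1*, 0.42) was not called, with a median of −1.16. These shares, 26.7% higher and 66.7% lower, stand against 39.1% and 42.7% of all transcripts. *bruli*, a CELF-family gene that neoblasts need in order to persist, had 1043, 1240.5 and 1246 CPM in X1, against 46.9, 38.0, 39.4 and 26.8 CPM in Xins (log2 4.96, SE 0.23, edgeR adjusted p = 2.57e-06). The groups did not overlap. The other 3 higher in X1 were *rbfox-1* (2.96) and the polypyrimidine-tract-binding homologues *ptbp-2* (2.77) and *ptbp-3* (2.27). These calls are against a difference of 0, whereas the study compared such factors with core spliceosome genes. The spliceosome lists had a median of 2.08 here. On its own measure the study reported no enrichment of *rbfox-1* and *ptbp-2* in X1, and enrichment of all *mbnl* genes in Xins. Families were divided between the fractions, since *ptbp-4* stood at −4.15 and the CELF gene *celf-2* was the named transcript furthest below Xins.

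*celf-2* had 0.281, 0.122 and 0.206 CPM in X1, against 24.2, 43.0, 42.6 and 9.65 CPM in Xins, on 13 counts in the 3 X1 libraries together and 4119 in the 4 Xins libraries (log2 −7.21, SE 0.73). *rbfox-2* had 0.619, 0.447 and 0.247 CPM in X1, against 42.8, 34.0, 37.7 and 21.6 CPM in Xins (log2 −6.30), and *rbfox-3* averaged 3.3 ± 0.71 CPM in X1 and 78.9 ± 18.4 CPM in Xins (log2 −4.58). In all 3 the lowest Xins value was that of wild type replicate 2, the library with the lowest sum of differentiated markers. *nova-1* (−2.37), *nova-2* (−1.79), *nova-3* (−0.87), *esrp-1* (−2.21), *esrp-2* (−1.16) and *mbnl-1* (−0.53) were lower by less. NOVA proteins are neuronal and ESRP proteins epithelial splicing factors in mammals, and muscleblind proteins, to which *mbnl-1* belongs, promote the splicing of differentiated tissues.

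The neural list of 11 divided into 5 called higher (45.5%) and 6 called lower (54.5%), around a median of −1.31. Of all transcripts, 39.1% were called higher and 42.7% lower, so the split itself sets the list little apart. The 3 with the largest differences up were STAR-family transcripts, *KHDRBS3* (2.85) and *KHDRBS2* comp1578 (2.61) and comp1393 (2.22), whose mammalian relatives regulate splicing in neurons. *KHDRBS3* had 5484, 4424 and 4629.5 CPM in X1, against 761, 613, 602 and 717 CPM in Xins. A pair of musashi transcripts had the largest differences down, *MSI1* comp13817 at 0.169, 0.203 and 0.0824 CPM in X1, against 17.2, 25.6, 26.5 and 13.0 CPM in Xins (log2 −7.06) and *MSI2* at 0.619, 0.407 and 0.33 CPM in X1, against 27.5, 34.3, 28.8 and 20.9 CPM in Xins (log2 −5.96), whereas the remaining one, *MSI1* comp7323, stood at the median of the list (−1.31). Musashi proteins repress translation and are known from neural progenitors of flies and vertebrates, and *MSI1* comp13817 stood near the floor of 3 counts per library in X1.

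Muscle and epithelial RNA-binding transcripts were lower in 8 of 10, against 42.7% of all transcripts, with a median of −3.62. At least 16-fold lower were 5 of the 10, against 17% of all transcripts. *RBPMS*, which controls splicing in mammalian smooth muscle, had 1.01, 0.569 and 0.824 CPM in X1, against 56.6, 78.4, 63.2 and 47.4 CPM in Xins (log2 −6.27, SE 0.31). *A1CF* comp7056, named for the cofactor of an mRNA-editing enzyme of mammalian gut and liver, had 0.45, 0.163 and 0.7 CPM in X1, against 31.9, 6.61, 11.7 and 23.5 CPM in Xins (log2 −5.38). Its Xins values were highest in control RNAi replicate 1 and wild type replicate 2, the libraries in which *celf-2* was lower. *RBM24* (0.66) was not called.

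The study chose, on these libraries, orthologues of genes whose splicing differs in stem cells, so they are no independent evidence of a direction. They were called higher in 3 of 15 (20%) and lower in 8 cases (53.3%), against 39.1% and 42.7% of all transcripts (median −0.61). The 3 called members with the largest differences down were the collagen-modifying enzyme *PLOD3* (−2.60), *EPB41L5* (−1.58) and the microtubule protein *EML1* (−1.32). The 3 called higher were the adducin *ADD3* (1.16), *SBF2* (0.77) and *CLASP2* (0.70). On log2(cRPKM + 1), 1 of the 3 higher ones was called. The remaining 75 RNA-binding transcripts were higher in 63 and lower in 7 cases (median 1.56). The leading 4 carry no human name, comp5611 (3.95), comp7745 (3.88), comp8569 (3.46) and comp3741 (3.44), as do comp3575 (−5.91) and comp7710 (−5.01) at the lower end, beside *PCBP3* comp7334 (−2.75). Without the first X1 control RNAi library comp7710 stood at −6.15, and without the second at −4.39.

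A best human hit shared by several transcripts did not always mean a shared direction. Of 41 human names carried by 2 or more tested transcripts, 24 had all of them called higher in X1 and 5 all called lower. Among all 351 tested list members 80.6% were called higher and 14% lower. Whether the counts of names differ from what these shares alone would give was not tested. In 6 names (*DHX8*, *TIA1*, *PABPC1*, *ELAVL4*, *RBMS1* and *SF3B6*) at least 1 transcript was called higher and another lower. Reads of close paralogues may be shared between transcripts, which was not tested.

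**Figure D4:**
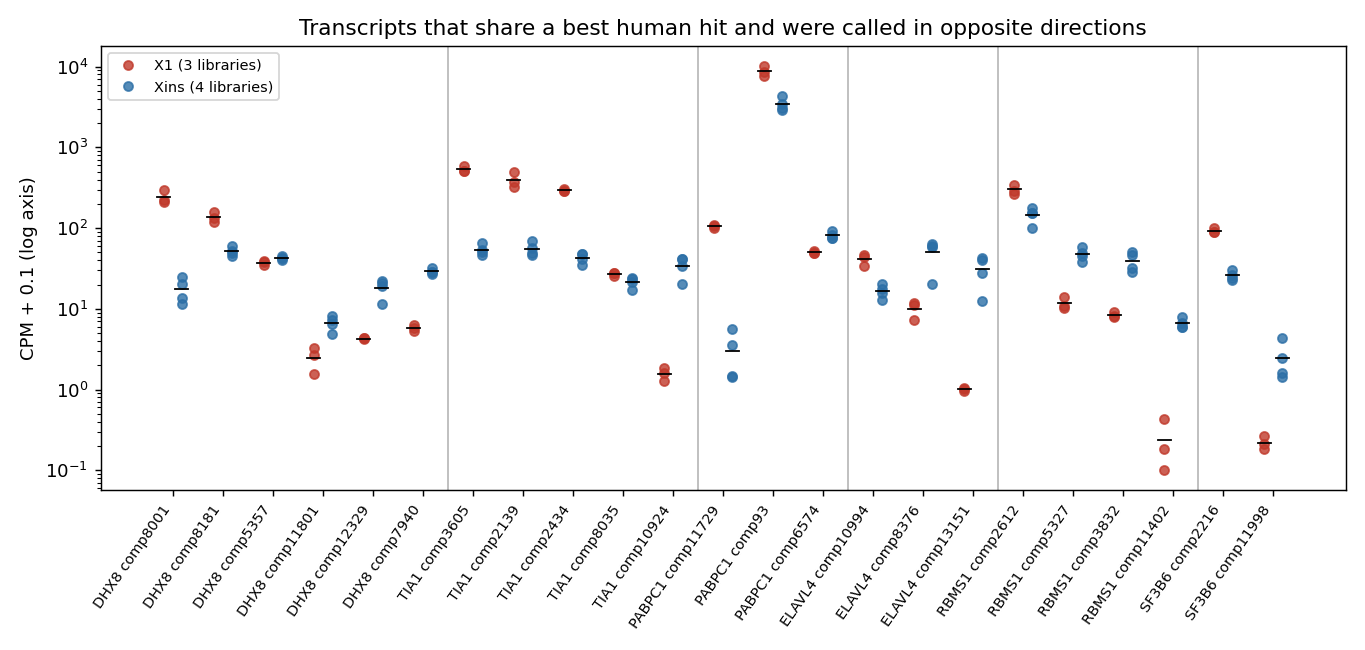
Level in CPM plus 0.1 (y axis, log scale) of the 23 tested transcripts of 6 human names (x axis, names divided by grey lines, each ordered by its difference) in 3 X1 libraries (red, left) and 4 Xins libraries (blue, right), with a bar at the mean. In each name the transcripts on the left lie higher in X1 and those on the right lie higher in Xins, as for *SF3B6* with log2 1.84 and −4.25, except that *DHX8* comp5357 and *TIA1* comp8035 were not called.

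*DHX8* is the helicase that releases the spliced mRNA from the spliceosome. Its transcript comp8001 had 294, 213 and 225 CPM in X1, against 24.6, 11.3, 13.6 and 20.0 CPM in Xins (log2 3.82), and comp8181 was higher by 1.40. By contrast comp7940 had 6.19, 5.61 and 5.27 CPM in X1, against 32.1, 27.1, 28.9 and 28.7 CPM in Xins (log2 −2.36), and comp12329 (−2.13) and comp11801 (−1.46) were lower as well. The sixth, comp5357 (−0.20), was not called, although all its X1 libraries lay below all its Xins libraries. On log2(cRPKM + 1) comp5357 was called lower (log2 −0.70, limma adjusted p = 0.00451). With the control RNAi libraries alone comp11801 was not called (log2 −1.61, edgeR adjusted p = 0.0522).

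*TIA1* and its relative *TIAL1* regulate splicing and form stress granules. *TIA1* comp3605 (3.32), comp2139 (2.84) and comp2434 (2.78) and *TIAL1* (2.34) were higher in X1, and comp8035 (0.33) was not called. In contrast *TIA1* comp10924 had 1.74, 1.18 and 1.48 CPM in X1, against 33.5, 41.1, 41.1 and 20.0 CPM in Xins (log2 −4.53). It is the only one of the 6 tested transcripts of this list that was called lower.

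*SF3B6* is the SF3b subunit that contacts the branch-site adenosine. Its transcript comp2216 had 88.1, 99.6 and 88.7 CPM in X1, against 24.1, 30.0, 22.8 and 26.2 CPM in Xins, whereas comp11998 had 0.112, 0.163 and 0.0824 CPM in X1, against 1.35, 2.34, 1.5 and 4.3 CPM in Xins (log2 −4.25). The second rests on 8 counts in X1 and 293 in Xins, and it was the only one of the 27 tested transcripts of the U2 list that was called lower.

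*PABPC1*, the cytoplasmic poly(A)-binding protein, had its largest difference in comp11729, with 105, 109 and 99.3 CPM in X1, against 5.57, 1.38, 1.32 and 3.44 CPM in Xins (log2 5.17, SE 0.53). Transcript comp93 averaged 8782 ± 1304 CPM in X1 and 3441 ± 617 CPM in Xins (log2 1.35), but it lay at −0.22 and was not called after quantile normalization (limma adjusted p = 0.0964). The remaining transcript, comp6574, averaged 50.3 ± 1.68 CPM in X1 and 81.2 ± 8.17 CPM in Xins (log2 −0.69).

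*ELAVL4* is a Hu protein that stabilizes mRNAs in neurons. Transcript comp13151 had 0.956, 0.854 and 0.906 CPM in X1, against 27.7, 40.2, 42.3 and 12.3 CPM in Xins (log2 −5.08), and comp8376 had 11.7, 7.16 and 10.9 CPM in X1, against 59.7, 58.4, 62.9 and 20.2 CPM in Xins (log2 −2.34). In both, wild type replicate 2 was the lowest Xins library. The third transcript, comp10994, was higher in X1, with 34.1, 46.1 and 44.0 CPM in X1, against 12.9, 20.3, 17.3 and 15.8 CPM in Xins (log2 1.32).

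*RBMS1* binds single-stranded nucleic acids. Its transcript comp2612 averaged 301 ± 38.2 CPM in X1 and 146 ± 31.5 CPM in Xins (log2 1.04), and comp5327 (−2.03), comp3832 (−2.23) and comp11402 (−5.65) were lower in X1. The last had 8 counts in X1 and 832 in Xins, and its fitted difference was −7.18 without the first X1 control RNAi library and −5.02 without the second.

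Among transcripts to which the study's tables give no name, those with the highest cRPKM in the fraction where they were at least 16-fold higher were also followed. In X1 these were comp648, with 9183, 8835 and 9261 CPM in X1, against 172, 24.0, 56.5 and 91.4 CPM in Xins (log2 6.73), and comp1568, with 1367, 1294 and 1229 CPM in X1, against 56.3, 37.0, 38.9 and 39.3 CPM in Xins (log2 4.92). In Xins they were comp750, with 126, 43.7 and 131 CPM in X1 and 2826, 8849, 6762 and 4201 CPM in Xins (log2 −5.82), and comp68. The last had 379, 10.9 and 49.2 CPM in X1, against 2420.0, 5749.9, 2682 and 3192 CPM in Xins (log2 −4.58, SE 1.18). Its X1 values spread widely, and without the first X1 control RNAi library, the highest of the 3, the difference was −6.87. With the control RNAi libraries alone comp68 was not called (log2 −4.54, edgeR adjusted p = 0.0535).

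The same fraction difference was then read in libraries that share no sample with the 7, from animals after RNAi of *bruli* or after combined RNAi of 4 muscleblind-like genes (*mbnl*), each with 2 X1 and 2 Xins libraries. This check was chosen after seeing the data. Of the 10515 transcripts called in unperturbed cells, 10433 had the same sign after *bruli* RNAi and 10478 after *mbnl* RNAi, and 8387 and 7506 of them were called in the same direction there, against 2 and 1 called in the opposite direction. In those libraries 30.4% and 25.8% of all transcripts were called higher in X1, and 36.3% and 33% lower. All 119 called transcripts named by the rule kept their sign in both. *PIWIL1* comp659 differed by 8.51 after *bruli* RNAi and 8.81 after *mbnl* RNAi, *celf-2* by −6.15 and −6.50, *DHX8* comp8001 by 4.94 and 5.01, and *TIA1* comp10924 by −3.59 and −4.60. *bruli* itself, the target of the first knockdown, differed by 3.93 in those libraries and by 5.15 after *mbnl* RNAi.

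**Figure D5:**
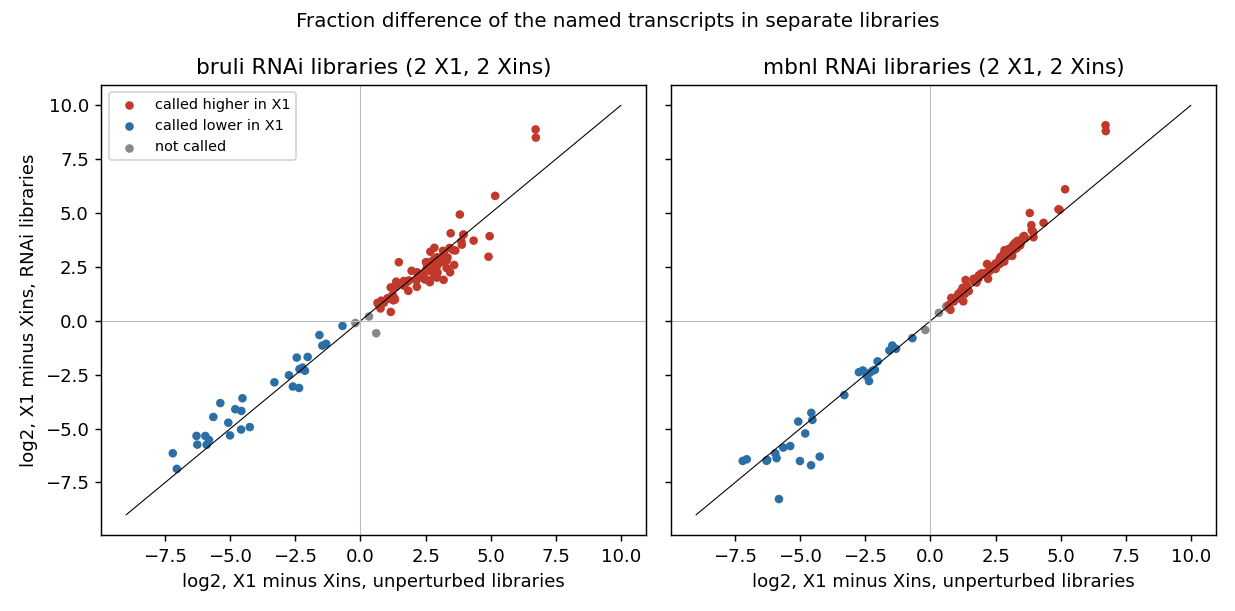
Log2 difference of X1 minus Xins of the 122 named transcripts in unperturbed libraries (x axis) against that in *bruli* RNAi (left) and *mbnl* RNAi (right) libraries (y axis). The line marks equal values. All 90 transcripts called higher in X1 (red) lie above 0 on the y axis and all 29 called lower (blue) lie below 0 in both panels.

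Control RNAi and wild type libraries were pooled within each fraction, so the effect of the injection was examined as well. Between control RNAi and wild type Xins libraries (2 against 2) edgeR's quasi-likelihood test called 0 of 12855 transcripts, with 114 at an unadjusted p under 0.05, and limma and edgeR with DESeq2 size factors called 0 too. The fraction difference in control RNAi minus that in wild type likewise gave 0 calls by each of these tools, with 19 transcripts at an unadjusted p under 0.05. The wild type arm has 1 X1 library, so its spread is taken from the other groups. These counts do not show that the treatments were alike. Within control RNAi replicate 1, control RNAi replicate 2 and wild type taken separately, 10507, 10508 and 10515 of the 10515 called transcripts had the sign of the pooled difference, as a description of the same libraries.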

How the data were processed

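RNA of sorted planarian cells was sequenced by the study as poly(A)-selected libraries. For every library and transcript of a de novo transcriptome the authors deposited a raw count and a cRPKM (RPKM corrected for mappable positions), made with vast-tools after mapping with Bowtie, with versions not given in the sources read. Blank count cells, all with a cRPKM of 0, were read as 0. Counts of the 3 X1 and 4 Xins libraries were fitted with edgeR 4.0.16 (R 4.3.3, TMM scaling, quasi-likelihood test, two-sided, no covariates), after a filter at mean log2(cRPKM + 1) above 1.5. Depth was 22.9 to 32.7 counts in units of 1e6, and the floor of 3 counts covers counting error only. The procedure was tested on simulated counts in which few transcripts were changed, equally often up and down. In the data most transcripts were called, and the large differences were mostly in one direction. The simulation therefore could not test the scaling under such a setting. A first limit, on the share of large simulated differences that were called, was not met and was replaced after that run by limits on bias, signs, false calls and standard errors, so a transcript that was not called may still differ.

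Alternatives were DESeq2 1.42.0, DESeq2 size factors, limma 3.58.1 on log2(cRPKM + 1), on log2(cRPKM + 0.1) and after quantile normalization, no filter, filterByExpr, control RNAi libraries only, X2 libraries added, treatment as a covariate, a replicate block and each library left out. A pseudocount understates differences of low transcripts. The members and lists were chosen with earlier results of these data known.

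Names come from the study's tables. The text names all tested members of lists of 8 or fewer, otherwise the 4 called members with the largest difference up and the 3 with the largest down, all members of a human name called in both directions, and the unnamed transcripts with the highest cRPKM in the fraction where they were at least 16-fold higher, 2 for each fraction. Further members named beside these (for example *TXNL4A*, *RBM24*, *ptbp-4* and the *nova*, *esrp* and *mbnl* genes) were chosen after their values were seen. For *MARK1*, *mbnl-like-2*, *ptbp-1*, *celf-3* and *celf-1* no values were analysed here. Values of some members that this rule would name are not reported here. Tables of 8 whole-worm knockdowns were not used.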

Additional observations from a re-analysis of the deposited data

Results flagged for a closer look

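The highest or lowest of the 4 Xins libraries stood apart from the other 3 in 9 of 124 values examined by Dixon's criterion for 4 samples, and chance alone flags about 1 in 20 such groups. The criterion was not applied to X1, which has 3 libraries. Control RNAi replicate 1 was the highest for *PRPF19* (103 CPM, others 72.8 to 76.3), *HNRNPA2B1* comp986 (234 CPM, others 162 to 172), *HNRNPF* (128 CPM, others 96.0 to 99.98), *SKIV2L2* (22.1 CPM, others 16.9 to 17.2) and the unnamed comp1568 (56.3 CPM, others 37 to 39.3). All 5 are higher in X1, and this library also had the highest sum of neoblast markers among Xins libraries, 901 CPM against 596 to 676 in the others.

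Wild type replicate 2 was the lowest for *ELAVL4* comp8376 (20.2 CPM, others 58.4 to 62.9) and for the summed markers of differentiated cells (531 CPM, others 693 to 717), and the highest for *TARDBP* comp20304 (4.10 CPM, others 1.82 to 2.13). Wild type replicate 1 was the lowest for *DROSHA* (8.32 CPM, others 9.41 to 9.56). Without Xins control RNAi replicate 1, 4988 transcripts were called higher in X1 and 5461 lower, and without Xins wild type replicate 2, 4964 and 5604. The part of these libraries' marker levels in the flagged values was not tested.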

How the results depend on the processing

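The main counts were 5031 transcripts higher in X1 and 5484 lower, and 340 and 2191 at 16-fold. Leaving out each library gave 4657 to 4988 higher and 5089 to 5604 lower, and at 16-fold 331 to 348 and 2047 to 2416. At 16-fold, filterByExpr gave 512 higher and 3334 lower and no filter 705 and 3808, both with more transcripts tested, while limma on log2(cRPKM + 1) gave 133 and 1089 and after quantile normalization 204 and 746. The *mbnl* RNAi libraries, added after seeing the data, gave 3316 higher, on fewer samples. Small-RNA silencing (7 higher) fell to 3 with control RNAi libraries only, to 2 on cRPKM with either pseudocount, to 4 in *bruli* RNAi and to 2 in *mbnl* RNAi libraries. Stem-cell orthologues (3 higher, 8 lower) had 1 higher on cRPKM with either pseudocount, and 1 higher and 4 lower in *bruli* RNAi and in *mbnl* RNAi libraries alike. Muscle and epithelial transcripts (1 higher) had 2 after quantile normalization and 2 with the replicate block, and 0 in *mbnl* RNAi libraries. Translation (5 lower) had 3 in both sets of RNAi libraries, *TARDBP* (4 higher) 2 and the neural list (5 higher) 3 in *mbnl* RNAi libraries. The cause was not tested. *PABPC1* comp93 turned to −0.22 after quantile normalization. Of 122 named transcripts, 13 changed their call or direction under an alternative on the unperturbed libraries and 20 when the *bruli* and *mbnl* RNAi libraries are included.

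With the replicate block, 5242 transcripts were called higher and 5490 lower, and *RECQL* comp7318 (0.61, not called without it) was called (log2 0.69, edgeR adjusted p = 0.0465). The libraries share only a number, and the first-minus-second control RNAi differences of X1 and Xins correlated at 0.386 across transcripts, with 2 pairs. Between control RNAi and wild type Xins libraries, and for the fraction difference between treatments, no setting gave a call, with 60 to 903 and 6 to 370 transcripts at an unadjusted p under 0.05. Few libraries and low counts in X1 limit the precision of the large differences.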
